A study of Mus musculus with 10 samples.

Results

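The 9 genes described here encode enzymes of prostaglandin and leukotriene synthesis and breakdown: *Ptgs1*, *Ptgs2*, *Ptges*, *Hpgds*, *Hpgd*, *Tbxas1*, *Alox5*, *Alox5ap* and *Ltc4s*. They were taken by gene symbol, and no measured value entered the rule. They are 9 of the 18292 gene symbols in the count tables of 10 single cell libraries from mouse microglia, the resident macrophages of the brain. A gene missing from a library's table was taken as 0. All 9 had UMIs (unique molecular identifiers, which count each captured mRNA molecule once) in the series, and between 7 and 9 of them in each library.

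The cells came from C57BL/6 mice in 5 groups of 2 libraries each. Adult microglia were isolated freshly from the brains of adult mice. *In vitro* microglia were collected from mixed glial cultures of neonatal cortex after 3 weeks, and slice microglia from organotypic brain slices of neonatal pups cultured for 1 day, 1 week or 3 weeks, with slices pooled as needed. Adult replicate 1 and slice 3 weeks replicate 1 carry 1 study label and the other 8 libraries a second one. The labels name no transgene and no treatment for any group, and all cells were sorted as CD11b high and CD45 intermediate. Mouse age differs between the adult group and every culture. The study calls the libraries of a group independent samples, and the sources used here do not say which mice or cultures stand behind them, so p-values measure the spread between these libraries.

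Arachidonic acid, cut from membrane phospholipids, feeds both routes. The cyclooxygenases *Ptgs1* (COX-1, mostly constitutive) and *Ptgs2* (COX-2, mostly inducible) turn it into prostaglandin H, from which *Ptges* makes prostaglandin E, *Hpgds* makes prostaglandin D and *Tbxas1* makes thromboxane A, while *Hpgd* begins the breakdown of prostaglandins. 5-lipoxygenase (*Alox5*) and its membrane partner FLAP (*Alox5ap*) make leukotriene A, which *Ltc4s* joins to glutathione, and microglia are known for *Hpgds*, *Ptgs1* and *Ltc4s*, whereas neutrophils are rich in *Alox5* and *Alox5ap*.

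After removal of 578 of 19637 barcodes, 19059 cells remained, from 61 to 3799 per library, with 385373 to 39689540 UMIs per library and medians of 1858 to 13966 UMIs per cell. Pairs of libraries shared at most 21 cell barcodes. All 9 microglia markers read here, *P2ry12* and *Tmem119* among them, had UMIs in every library, with summed levels of 48088 and 48465 CPM (counts per 1e6 UMIs) in adult libraries, 8741 to 10169 *in vitro*, 7375 to 16820 in slices of 1 day and 1 week, and 23720 to 28260 in those of 3 weeks. The 12 neutrophil markers, led by *S100a8* and *S100a9*, summed to 7996 and 23045 CPM at 1 day and to 41035 and 989 at 1 week. Elsewhere they summed to at most 9.2 CPM, and 4 to 7 of the 12 had no UMI. Some results from these 2 groups are therefore also given without the cells rich in them. The 8 monocyte markers summed to 7.35 and 5.59 CPM in adult, 38.7 and 90.02 *in vitro*, and 539 and 756 after 1 day in slices. They summed to 1176 and 345 after 1 week and to 232 and 150 after 3 weeks. *Ly6c2* was at 0 in every library but those of 1 day and 1 week replicate 1. In 1 week replicate 2 the sum was all *Fn1*, with the other monocyte markers at 0. In 3 weeks replicate 1 only *Ccr2* and *Fn1* had UMIs. The 8 markers of border macrophages, the macrophages along vessels and meninges, summed to 14.3 and 8.97 CPM in adult, 4517 and 4332 *in vitro*, and 130 to 489 in the slices. The 11 immediate early genes, which handling can raise, summed to 1312 and 1156 CPM in adult, 395 and 321 *in vitro*, 1227 and 991 after 1 day in slices, 470.04 and 537 after 1 week and 807 and 653 after 3 weeks, and astrocyte markers to 154 and 148 CPM in adult and 5.07 to 34.1 in the cultures. The part of these lists in the results was not tested. Mast cell and basophil markers stayed at or below 27 CPM in every library. In sums over a library, fewer cells that express a gene and less RNA per cell cannot be told apart.

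Levels of libraries are CPM of the summed counts, scaled by TMM factors (a scaling that sets most genes level), those of marker lists and of sets of cells within a library are CPM with no such factor, and a difference was called at an edgeR FDR below 0.05 with a fold change over 1.5. All 9 members were among the 12157 genes tested, although *Ptgs2* and *Ptges* passed the filter on low counts only through the slice libraries of 1 day and, for *Ptges*, 1 of 1 week. Counted per cell with no scaling for depth, the median of all genes tested stood above adult by 2.04 (log2) in the *in vitro* libraries, by 1.49 in 1 day slices, by 1.10 in 1 week slices and by 1.05 in 3 week slices. All directions below are therefore relative to the other genes of a library, and members whose sign differs per cell are named.

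*Ptgs1* lies on chr2:36230426-36252272 of GRCm38, *Ptgs2* on chr1:150100031-150108227 and *Ptges* on chr2:30889471-30929863. *Hpgds* lies on chr6:65117293-65144908, *Tbxas1* on chr6:38875404-39084585, and *Hpgd* on chr8:56294585-56321043. Of the leukotriene genes, *Alox5* lies on chr6:116410077-116461178, *Alox5ap* on chr5:149264767-149288153 and *Ltc4s* on chr11:50236461-50238616. Exons of *Ptgs1*, *Tbxas1*, *Alox5ap* and *Ltc4s* overlap an annotated gene on the opposite strand.

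The 250 bases before the transcription start are shown for the pair highest at 1 day of slice culture, *Ptgs2* and *Ptges*, and for *Ptgs1* and *Hpgds*, 2 of the 3 members called lower than adult in every culture (the other is *Hpgd*), all chosen with their values known, with matches to 9 motifs in capitals. The sequences are RefSeq's (GRCm38.p6), which gave 8 of the 9 members, all but *Alox5ap*, and are written 5′ to 3′ on the gene's strand.
Ptgs2, chr1:150099781-150100030, plus strand: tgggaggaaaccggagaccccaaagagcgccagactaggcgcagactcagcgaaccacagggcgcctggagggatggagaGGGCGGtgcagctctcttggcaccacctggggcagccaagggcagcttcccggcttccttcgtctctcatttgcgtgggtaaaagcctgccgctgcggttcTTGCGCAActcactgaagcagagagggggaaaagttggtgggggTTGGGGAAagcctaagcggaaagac
Ptges, chr2:30903298-30903547, minus strand: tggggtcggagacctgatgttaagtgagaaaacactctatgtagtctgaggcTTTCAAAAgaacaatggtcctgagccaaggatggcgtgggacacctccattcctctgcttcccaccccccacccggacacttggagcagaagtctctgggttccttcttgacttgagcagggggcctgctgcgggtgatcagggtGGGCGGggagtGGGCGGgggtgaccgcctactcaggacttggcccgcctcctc
Ptgs1, chr2:36230176-36230425, plus strand: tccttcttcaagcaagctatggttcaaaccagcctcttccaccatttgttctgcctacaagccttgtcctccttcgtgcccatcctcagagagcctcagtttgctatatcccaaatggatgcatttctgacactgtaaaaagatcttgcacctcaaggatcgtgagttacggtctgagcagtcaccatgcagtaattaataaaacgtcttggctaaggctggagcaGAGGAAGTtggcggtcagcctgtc
Hpgds, chr6:65144731-65144980, minus strand: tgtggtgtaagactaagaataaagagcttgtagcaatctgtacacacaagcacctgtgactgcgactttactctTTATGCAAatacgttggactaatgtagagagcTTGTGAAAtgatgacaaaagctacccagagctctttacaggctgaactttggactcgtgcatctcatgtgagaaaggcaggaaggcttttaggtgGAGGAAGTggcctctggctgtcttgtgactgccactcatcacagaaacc

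Both strands were searched for the CRE core TGACGT, C/EBP TTNNGNAA, the E-box CACGTG, AP-1 TGANTCA, NF-kappaB by a motif not spelled out here, EGR1 GCGGGGGCG, the GC box GGGCGG, the TATA box TATAAA and PU.1 GAGGAAGT. The C/EBP letters were found for *Ptgs2*, *Ptges*, *Hpgds* and *Hpgd*, and the GC box for *Ptgs2*, *Ptges*, *Hpgd* and *Alox5*, and 36.9% and 32.9% of all 27025 promoters hold them. The PU.1 letters were found for *Ptgs1* and *Hpgds*, from 24 to 17 and from 49 to 42 bases before the start, and 2.44% of all promoters hold them. *Hpgd*, low in every culture too, had no PU.1 match, and *Ltc4s* no match to any of the 9. The RefSeq starts of *Ptges*, *Hpgds*, *Tbxas1* and *Ltc4s* lie within the gene spans given above, so their windows overlap those spans. Matches describe the letters of these windows and show no binding.

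**Figure D1:**
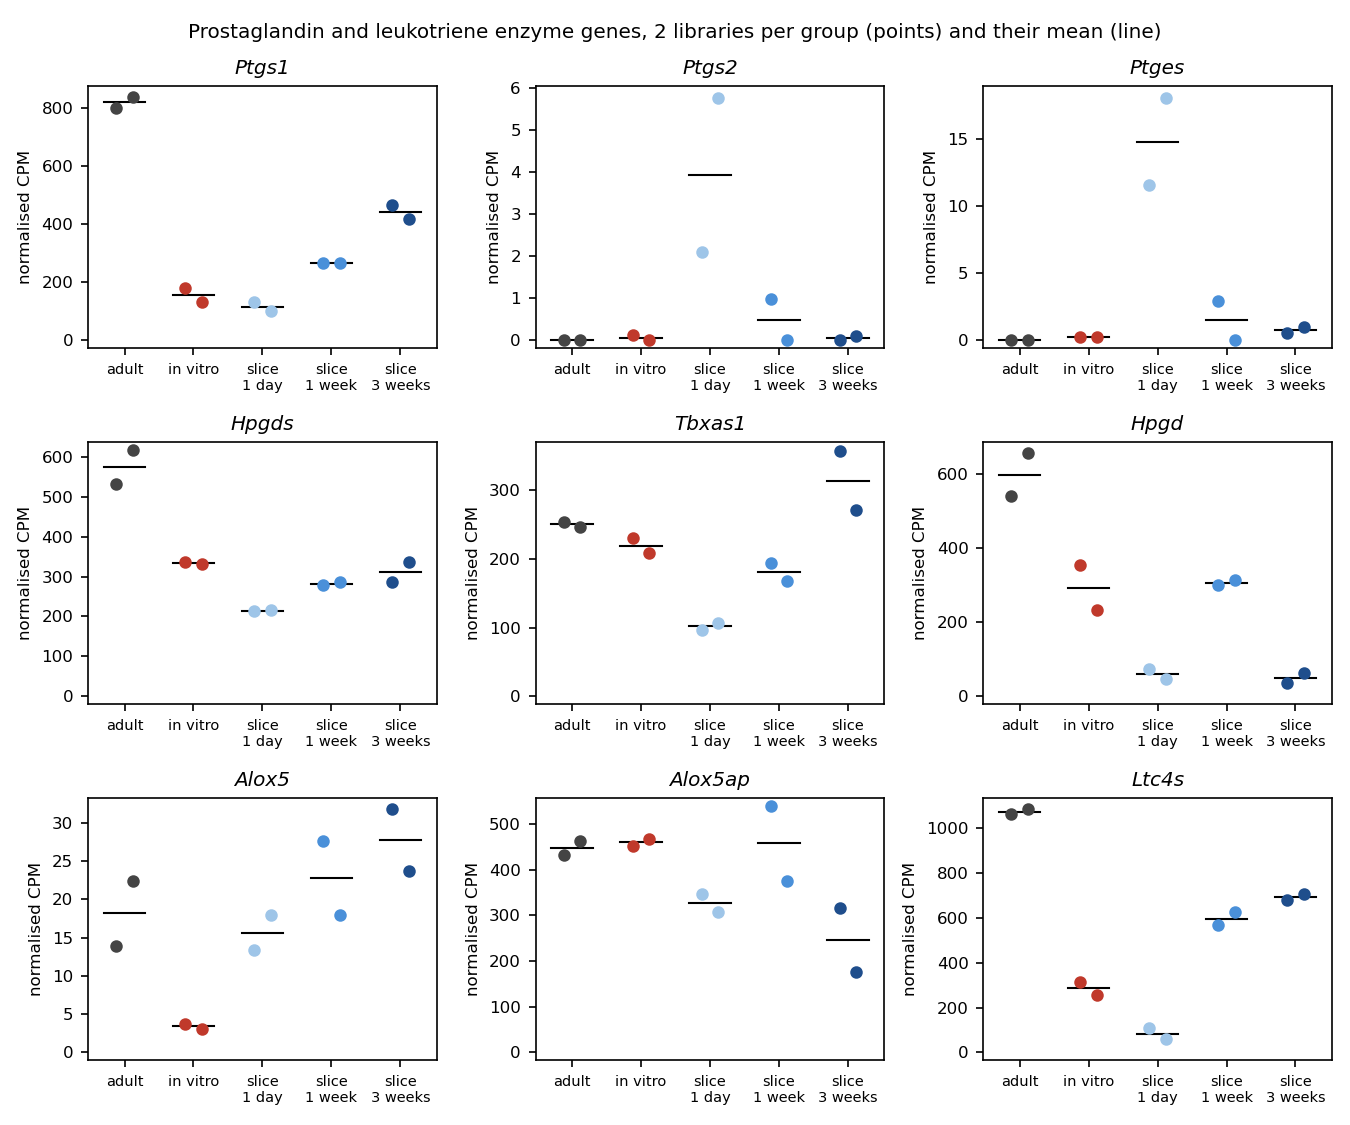
Level of each of the 9 genes in every library (points, normalised CPM, each panel with its own axis, 0 included) by group, with the mean of the 2 libraries as a line. *Ptgs2* and *Ptges* stand out at slice 1 day, with means of 3.93 and 14.8 CPM. *Hpgd* is lower at slice 1 day and 3 weeks than at 1 week, and below adult at each slice time.

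*Ptgs1*, the constitutive cyclooxygenase, was highest in adult microglia and lower in all 4 cultures relative to other genes. It measured 800.2 and 838 CPM in adult, 179 and 132 *in vitro*, 131 and 101 after 1 day in slices, 268 and 266 after 1 week and 465 and 417 after 3 weeks. No culture overlapped adult, and the 3 slice times did not overlap one another. Against adult, *Ptgs1* changed by −2.40 ± 0.19 (log2 fold change ± SE, adjusted p = 3.29e-06) *in vitro*, −2.82 ± 0.19 (2.67e-06) at 1 day, −1.62 ± 0.19 (0.000198) at 1 week and −0.89 ± 0.18 (0.00323) at 3 weeks. Within the slices it rose by 1.20 from 1 day to 1 week (adjusted p = 0.00525), a call lost without slice 1 day replicate 2 (0.0592) or 1 week replicate 1 (0.0589) and in thinned cells (0.169), while the step to 3 weeks, 0.72, missed the threshold (adjusted p = 0.0523). The *in vitro* cells were below slice 3 weeks by −1.51 ± 0.18 (adjusted p = 0.000173). Per cell, the fall held at 1 day (−1.28), was not called *in vitro* (−0.22) or at 1 week (−0.42), and had the opposite sign at 3 weeks (0.22).

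*Ptgs2*, the inducible cyclooxygenase, was near absent outside the 1 day slices. The UMIs were 8 and 56 in the 1 day libraries (2.09 and 5.76 CPM), 4 and 0 *in vitro*, 1 and 0 at 1 week, 0 and 2 at 3 weeks, and 0 in both adult libraries, of 3799 and 3527 cells, which allows a share of cells with a *Ptgs2* UMI, not of cells that express it, of up to 0.0790% and 0.0851% at these depths (medians of 3257 and 1858 UMIs, against 6452.5 and 8335 at 1 day). The 1 day mean was at least 28-fold above the adult floor of 3 counts over the group, and the 3 week level differed from 1 day by −5.78 (log2), or by −4.80 and not called without slice 1 day replicate 2. As *Ptgs2* passed the filter only through its 1 day libraries, these 2 differences are a description, given with no p. The 1 day UMIs lay in 7 of 518 cells and 28 of 1014, or 1.35% (95% exact interval 0.545 to 2.76) and 2.76% (1.84 to 3.97), with at most 6 in a cell. The *Ptgs2* share was 0.389% and 0.789% after cells were thinned to 1500 UMIs, a depth at which 0 of 3521 and 0 of 2671 adult cells had one. Cells rich in neutrophil markers held 3 of the 8 *Ptgs2* UMIs and 0 of the 56.

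*Ptges*, the inducible prostaglandin E synthase, was also highest at 1 day. It had 0 UMIs in both adult libraries, 7 and 8 *in vitro* (0.225 and 0.224 CPM), 44 and 175 at 1 day (11.5 and 18.0 CPM), 3 and 0 at 1 week, and 4 and 21 at 3 weeks (0.517 and 0.977 CPM). Both 1 day libraries were above every other library. The 1 day mean was at least 105.5-fold above the adult floor, and the 3 week level differed from 1 day by −4.18 (log2), both with no p for the same reason. The 3 week mean was at least 5.3-fold above the adult floor (adjusted p = 0.00508). A single cell held 54 of the 175 UMIs in 1 library and 12 of the 44 in the other. UMIs were found in 4.63% (2.99 to 6.82) and 5.23% (3.94 to 6.78) of cells, or 1.36% and 1.38% after thinning, and 42 of 44 and 170 of 175 lay outside the cells rich in neutrophil markers. The call *in vitro* (15 UMIs, at least 1.6-fold, adjusted p = 0.0372) was lost without any 1 of the 2 *in vitro* or 2 adult libraries, with the study label as covariate (0.0894), with the second label only (0.189) and in thinned cells (0.345). The call at 1 week rested on 3 UMIs in 2 cells of 1 library, both rich in neutrophil markers, and no UMI remained without them.

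*Hpgds*, the hematopoietic prostaglandin D synthase, was lower in all 4 cultures relative to other genes, though not per cell. The libraries measured 532 and 617 CPM in adult, 335 and 331 *in vitro*, 214 and 216 after 1 day in slices, 278 and 286 after 1 week and 287 and 337 after 3 weeks. All 8 culture libraries lay below both adult libraries. The changes against adult were −0.78 ± 0.14 (adjusted p = 0.000914) *in vitro*, −1.42 ± 0.15 (2.78e-05) at 1 day, −1.03 ± 0.15 (0.000636) at 1 week and −0.88 ± 0.14 (0.000899) at 3 weeks. *In vitro* and slice 3 weeks were not called different, with an interval of −0.22 to 0.41 on the log2 scale. Per cell the sign turned in all 4, to 1.42 *in vitro*, where it was called, and to 0.16, 0.19 and 0.24 in the slices, where it was not.

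*Tbxas1*, thromboxane A synthase, was called lower than adult at 1 day and in no other culture. It measured 254 and 247 CPM in adult, 231 and 208 *in vitro*, 96.9 and 108 after 1 day in slices, 194 and 169 after 1 week and 357 and 271 after 3 weeks. Both 3 week libraries were above adult and both 1 day libraries were below all others. The change was −1.29 ± 0.17 (adjusted p = 0.000114) at 1 day, and was not called *in vitro* (−0.19, 95% interval −0.55 to 0.17), at 1 week (−0.46, −0.84 to −0.08) or at 3 weeks (0.33, −0.03 to 0.69). Within the slices *Tbxas1* rose by 0.83 from 1 day to 1 week (adjusted p = 0.0157), by 0.78 from 1 week to 3 weeks (adjusted p = 0.0286) and by 1.62 ± 0.17 in all (adjusted p = 0.000181). The first step was lost without slice 1 day replicate 1 (adjusted p = 0.0823), 1 day replicate 2 (0.0761) or 1 week replicate 1 (0.162) and in thinned cells (0.401). The second was lost without 1 week replicate 1 (0.175) or 2 (0.0863), with the study label as covariate (0.66, adjusted p = 0.0572), with the second label only (0.58, 0.0588) and with only the 2 groups compared (0.154). At 1 week *Tbxas1* was called lower than adult with library size alone (−0.67, adjusted p = 0.0149) and in thinned cells (−0.86, 0.0386). Per cell, *Tbxas1* had the opposite sign at 1 day (0.26), 1 week (0.73) and *in vitro* (1.98), and was called higher *in vitro* and at 3 weeks (1.44).

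*Hpgd*, the prostaglandin dehydrogenase that starts breakdown, was low at 1 day of slice culture, higher at 1 week and low again at 3 weeks. The values were 541 and 655 CPM in adult, 354 and 232 *in vitro*, 73.6 and 47.2 after 1 day in slices, 299 and 314 after 1 week and 36.6 and 64.0 after 3 weeks. The 1 day and 3 week libraries overlapped each other and lay below all the rest, while 1 week lay within the *in vitro* range. Against adult, *Hpgd* changed by −3.32 ± 0.32 (adjusted p = 1.92e-05) at 1 day, −0.96 ± 0.30 (0.0352) at 1 week, −3.56 ± 0.32 (2.73e-05) at 3 weeks and −1.03 ± 0.29 (0.0122) *in vitro*. It rose by 2.35 ± 0.32 (adjusted p = 0.00333) from 1 day to 1 week, fell by 2.60 on the log2 scale (adjusted p = 0.00248) from 1 week to 3 weeks, and was 2.53 ± 0.31 higher *in vitro* than at slice 3 weeks (adjusted p = 0.000167). The 3 week fall was −3.89 and −3.35 within the 2 study labels. With slice 1 day replicate 2 and 1 week replicate 1, the libraries with neutrophil markers in nearly every cell, left out, the steps of *Hpgd* from 1 day to 1 week (2.09, adjusted p = 0.143) and from 1 week to 3 weeks (−2.62, adjusted p = 0.0836) were not called, with 1 library left in each early group, while without the neutrophil-marker-rich cells alone both were (2.32 and −2.64). Per cell, the falls at 1 day (−1.77) and 3 weeks (−2.46) stayed, and the signs at 1 week (0.26) and *in vitro* (1.17, called higher, adjusted p = 0.00234) turned. The call *in vitro* was lost without adult replicate 2 (adjusted p = 0.0658) or *in vitro* replicate 2 (0.172), and that at 1 week without any 1 of the adult or 1 week libraries. In cells thinned to 1500 UMIs, *Hpgd* was found in 56.9% and 66.2% of adult cells and 36.7% and 27.2% *in vitro*. The slices gave 9.34% and 5.82% after 1 day, 24.1% and 30.4% after 1 week and 4.34% and 7.83% after 3 weeks. At equal depth such a share follows largely from the summed level, so it does not tell fewer expressing cells from less RNA per cell.

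Of the leukotriene genes, *Ltc4s*, leukotriene C synthase, had its lowest level at 1 day and was higher at the later slice times. It measured 1064 and 1083 CPM in adult, 314 and 257 *in vitro*, 109 and 58.1 after 1 day in slices, 566 and 626 after 1 week and 679 and 708 after 3 weeks. No 2 groups overlapped. The change against adult was −3.69 ± 0.27 (adjusted p = 3.85e-06) at 1 day, −1.91 ± 0.25 (0.000103) *in vitro* and −0.85 ± 0.25 (0.0258) at 1 week, and was not called at 3 weeks (−0.63, 95% interval −1.17 to −0.09, adjusted p = 0.0617). From 1 day *Ltc4s* rose by 2.84 ± 0.27 to 1 week (adjusted p = 0.000978) and by 3.06 ± 0.26 to 3 weeks (8.15e-05), while the step from 1 week to 3 weeks, 0.22, was not called (0.681), and *in vitro* was below slice 3 weeks by −1.28 ± 0.25 (0.00257). Per cell, the fall at 1 day held (−2.19), and the signs *in vitro* (0.26), at 1 week (0.34) and at 3 weeks (0.47) turned. The 1 week call was lost without any 1 of the adult or 1 week libraries and with the second study label only (adjusted p = 0.0624).

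*Alox5* was the least abundant of the leukotriene genes and was low in the *in vitro* cells. It measured 13.9 and 22.4 CPM in adult, 3.75 and 3.03 *in vitro*, 13.4 and 17.9 after 1 day in slices, 27.7 and 17.9 after 1 week and 31.8 and 23.7 after 3 weeks. Only the *in vitro* libraries stood apart, below all 8 others. The change was −2.40 ± 0.28 (adjusted p = 4.71e-05) against adult and −3.02 ± 0.28 (2.77e-05) against slice 3 weeks. Per cell the first was −0.16 and not called, while the second, −1.97, was. No slice time was called against adult, with 95% intervals of −0.79 to 0.44 at 1 day, −0.37 to 1.25 at 1 week and 0.03 to 1.20 at 3 weeks. Per cell, *Alox5* was called higher than adult at all 3 times (1.46, 1.68 and 1.81). At 3 weeks the difference was 1.19 and 0.081 within the 2 study labels.

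*Alox5ap*, whose protein presents arachidonic acid to 5-lipoxygenase, did not follow *Alox5*. It measured 431 and 461 CPM in adult, 451 and 467 *in vitro*, 346 and 308 after 1 day in slices, 538 and 376 after 1 week and 315 and 175 after 3 weeks. The *in vitro* and adult libraries overlapped, with an interval of −0.52 to 0.60 on the log2 scale. The 3 week level was below adult by −0.87 ± 0.25 (adjusted p = 0.0204) and below *in vitro* (0.91 ± 0.25 higher *in vitro*, adjusted p = 0.0175, lost without *in vitro* replicate 2, at 0.0594, and with only the 2 groups compared, at 0.056). The fall from adult was −0.45 and −1.40 within the 2 study labels, was lost with only the 2 groups compared (adjusted p = 0.0723) and without adult replicate 1 (0.0735), adult replicate 2 (0.0832) or slice 3 weeks replicate 2 (0.117), and had the opposite sign per cell (0.28). Per cell, *Alox5ap* was called higher than adult *in vitro* (2.23), at 1 day (1.10) and at 1 week (1.25), where on the main scale 0 of the 3 were called (0.041, −0.45 and 0.045).

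**Figure D2:**
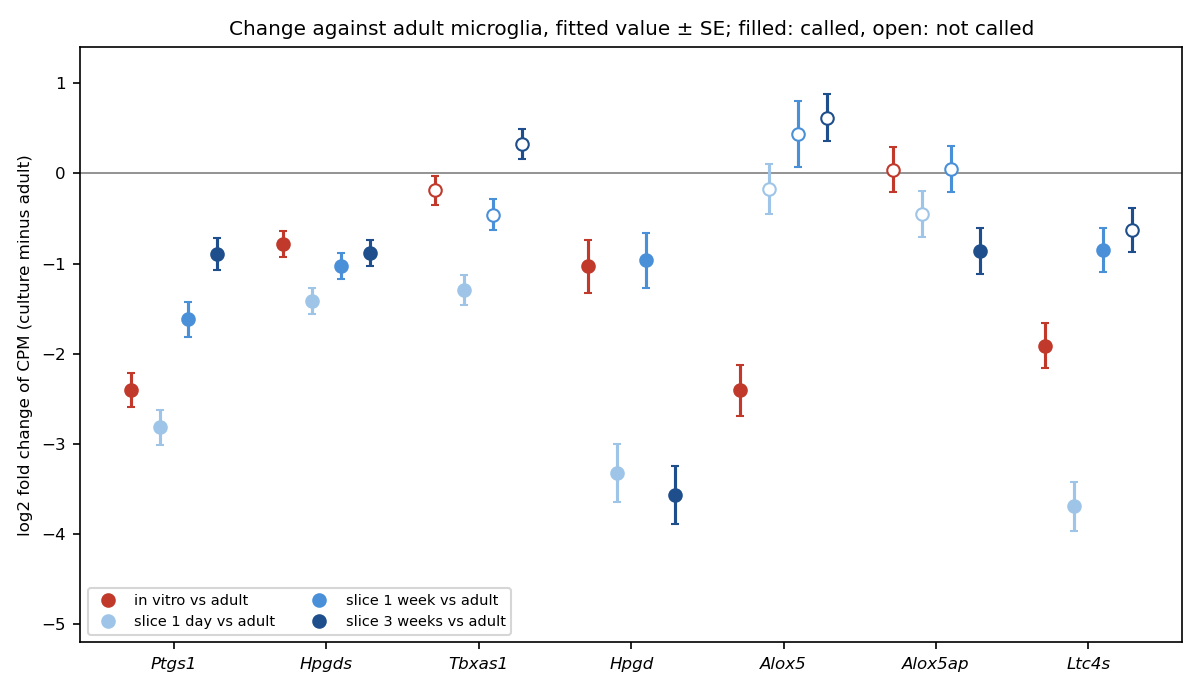
Log2 fold change of each culture against adult for the 7 genes with adult counts (points, fitted value; bars, SE; filled, called; open, not called). *Ptgs1*, *Hpgds*, *Hpgd* and *Ltc4s* lie below 0 in all 4 cultures on this scale. Per cell, *Hpgds* turned sign in all 4 and *Ptgs1* at 3 weeks. *Hpgd* and *Ltc4s* turned *in vitro* and at 1 week, and *Ltc4s* also at 3 weeks.

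*Alox5* and *Alox5ap* were higher in slice cells rich in neutrophil markers than in the other cells. Cells in which the 12 neutrophil markers held at least 2% of UMIs numbered 68 of 518 and 111 of 1014 at 1 day, and 24 of 148 and 1 of 61 at 1 week, and 10, 9, 2 and 0 cells lay near the cut, between 1% and 4%. In these cells *Alox5ap* stood at 2575, 1774 and 1761 CPM in the first 3 libraries, against 252, 190 and 305 in the other cells, or 10.2, 9.36 and 5.76 times as high. *Alox5* stood at 111, 118 and 81.3 CPM against 9.17, 9.78 and 17.1. The 68, 111 and 24 cells held 442 of 1320, 1326 of 2993 and 260 of 545 *Alox5ap* UMIs. *Hpgds*, *Tbxas1* and *Hpgd* went the other way, with *Hpgds* at 11.7, 34.8 and 13.5 CPM in the neutrophil-marker-rich cells against 234, 235 and 299. The share of these cells with an *Hpgds* UMI was 2.94%, 18.9% and 8.33% at median depths of 2224, 4834 and 4490.5 UMIs. In the other cells it was 65.8%, 76.3% and 75.0% at 6986, 8897 and 7292 UMIs. *Ptgs1* and *Ltc4s* gave no common direction. *Ptgs1* stood at 268, 99.0 and 94.8 CPM in the neutrophil-marker-rich cells against 131, 104 and 275 in the others, and *Ltc4s* at 367, 64.2 and 94.8 CPM against 102, 58.7 and 599.

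Without the neutrophil-marker-rich cells, *Alox5ap* at 1 day was below adult by −1.08 (adjusted p = 0.00343) and *Alox5* by −0.97 (adjusted p = 0.0104), and both were called. *Alox5* was then 1.59 higher at 3 weeks than at 1 day (adjusted p = 0.00167). With slice 1 day replicate 2 and 1 week replicate 1 left out in full, *Ltc4s* was the 1 member called from 1 day to 1 week (2.51, adjusted p = 0.0438), 0 were called by edgeR from 1 week to 3 weeks, where 3 had an unadjusted p under 0.05, and *Ptgs1* and *Hpgds* were the 2 called at 1 week against adult. Of all 12542 genes tested with these libraries left out, 3 were called higher and 3 lower from 1 day to 1 week, and 4 and 11 from 1 week to 3 weeks. At 1 week against adult 752 of 12541 were higher and 444 lower. *Ptgs1*, *Hpgds*, *Tbxas1*, *Hpgd* and *Ltc4s* at 1 day stayed called without the neutrophil-marker-rich cells. Neutrophil markers were not confined to these cells, as 1011 of 1014 cells of 1 day replicate 2 and 148 of 148 of 1 week replicate 1 held at least 3 of the 12, and their part in the remaining *Alox5ap* and *Alox5* counts was not tested.

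**Figure D3:**
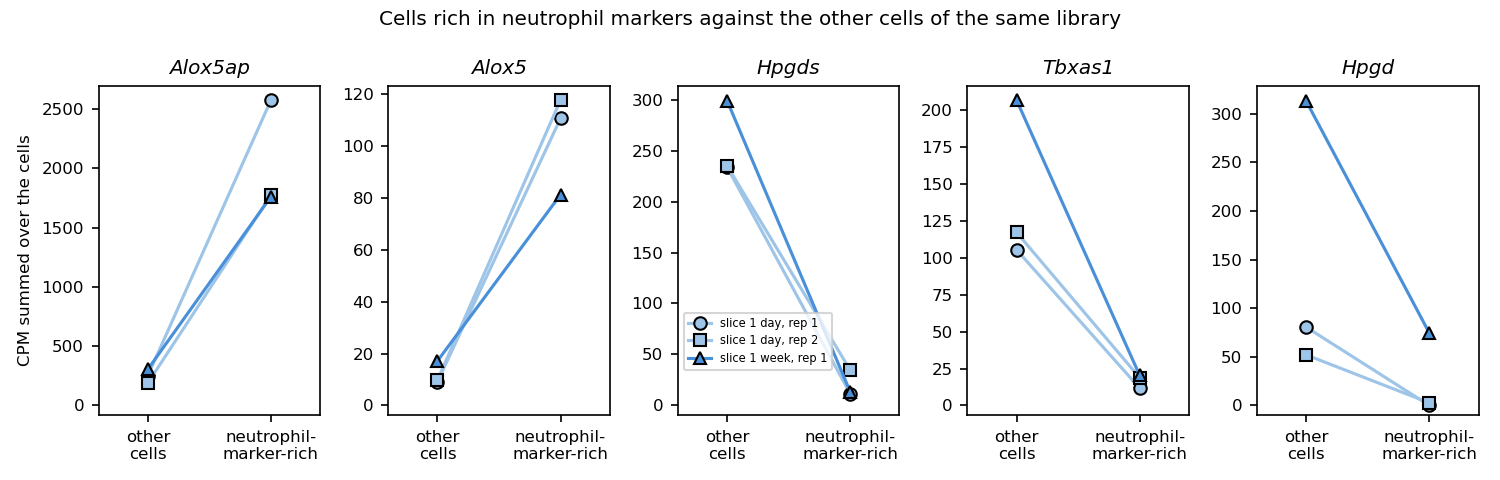
CPM summed over the cells rich in neutrophil markers and over the other cells of the same library, in the 3 libraries with at least 20 such cells (lines join the 2 sets of a library, each axis includes 0). *Alox5ap* and *Alox5* are higher in the neutrophil-marker-rich cells of all 3 libraries, and *Hpgds*, *Tbxas1* and *Hpgd* are lower.

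Ratios of 2 members within a library do not depend on scaling. *Hpgd* to *Ptgs1*, a breakdown to a synthesis gene, was 0.728 ± 0.074 (SD, n = 2) in adult, 1.87 ± 0.15 *in vitro*, 0.513 ± 0.067 at 1 day, 1.15 ± 0.05 at 1 week and 0.116 ± 0.053 at 3 weeks, and no 2 groups overlapped. *Tbxas1* to *Hpgds*, the thromboxane to the prostaglandin D synthase, was 0.439 ± 0.054 in adult and 1.02 ± 0.31 at 3 weeks, with the other groups between 0.452 and 0.698. *Alox5ap* to *Alox5* was 137 ± 24 *in vitro*, against 25.8 ± 7.3 in adult and 8.65 ± 1.79 at 3 weeks. *Ptges* to *Hpgds* was 0.069 ± 0.021 at 1 day and measured at most 0.011 in any other library. The 0 of 1 week replicate 2 allows up to 2.68 *Ptges* per 100 *Hpgds* UMIs by the floor of 3 counts. With 2 libraries against 2, a permutation test of a single ratio cannot go below p = 0.333, so the ratios are described without a test.

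**Figure D4:**
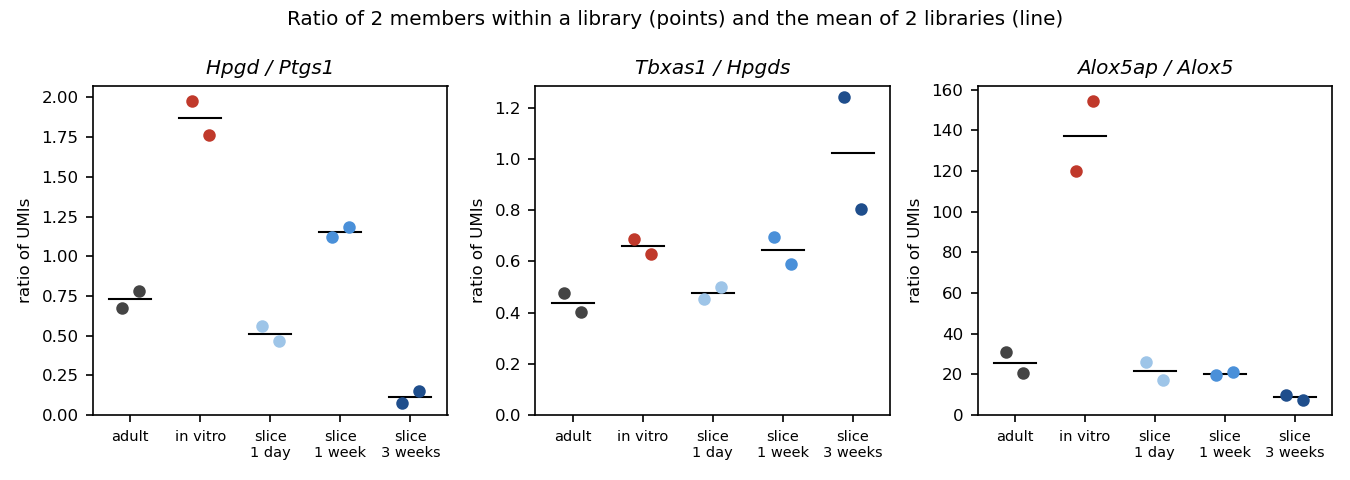
Ratio of the UMIs of 2 members in each library (points) with the mean of the 2 libraries (line), by group, axes from 0. *Hpgd* to *Ptgs1* spans 0.116 at slice 3 weeks to 1.87 *in vitro*, and *Alox5ap* to *Alox5* is 137 *in vitro*.

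Members also differed with *Gpnmb*, which encodes a glycoprotein of activated macrophages. In the slice 3 weeks libraries, cells with a *Gpnmb* UMI (291 and 635 cells, medians of 6908 and 6698 UMIs) had less *Ltc4s* than cells without one (862 and 3105 cells, 5913 and 5041 UMIs), at 445 against 764 CPM and 431 against 747. *Ptgs1* was at 306 against 523 and 271 against 436 CPM, and *Alox5ap* at 224 against 348 and 110 against 184. *Hpgd* was at 34.0 against 37.1 and 63.6 against 61.1 CPM, with no common direction. *In vitro*, where 1795 of 2417 and 2345 of 2682 cells had a *Gpnmb* UMI, *Hpgd* was at 287 against 482 and 194 against 354 CPM, and *Ptgs1* at 150 against 221 and 110.0 against 201. These are sums over cells of the same library, given as a description.

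Counted over the 9 members, 1 was called higher and 5 lower in the *in vitro* cells against adult, where 50.8% of all genes tested were called, 22.4% higher and 28.5% lower. At 1 day 2 were higher and 5 lower, beside 50.2% of all genes (24.9% higher, 25.3% lower). At 1 week 1 was higher and 4 lower, beside 28.6% (15% higher, 13.6% lower), and at 3 weeks 1 was higher and 4 lower, beside 35.4% (17.9% higher, 17.5% lower). The median log2 change of the 9 was −0.78, −1.29, −0.46 and −0.63 in these 4 comparisons, which share the adult libraries, beside −0.11, −0.06, −0.08 and −0.03 for all genes tested. The members called higher against adult were *Ptges* and, at 1 day, *Ptgs2*, which the filter kept only through the slice libraries named above, so these counts and medians are descriptions. Against slice 3 weeks, 2 were higher and 4 lower *in vitro*, beside 33.2% of all genes (13.3% higher, 19.9% lower). From 1 day to 1 week of slice culture 4 were higher and 1 lower, beside 10.2% (4.91% higher, 5.25% lower). From 1 week to 3 weeks 1 was higher and 1 lower, beside 5.71% (2.22% higher, 3.49% lower). From 1 day to 3 weeks 3 were higher and 2 lower, beside 26.7% (13.9% higher, 12.8% lower). In the last of these, *Ptgs1*, *Tbxas1* and *Ltc4s* were higher at 3 weeks, *Ptgs2* and *Ptges* lower, and *Hpgd* was not called (−0.24, 95% interval −0.91 to 0.42).

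Among well expressed genes (mean log2 level no lower than 5), those closest to each member over the 10 libraries were found by Pearson correlation of log2(CPM + 1). They were *H2-DMb1* and *Fam3a* for *Ptgs1* (r = 0.990 and 0.989), *Klf3* and *Wasf2* for *Hpgds* (0.989 and 0.977), *C1qa* and *C1qc* for *Tbxas1* (0.965 and 0.955), and *Rnf145* and *Ogfrl1* for *Hpgd* (0.952 and 0.935). For the leukotriene genes they were *Tmem41b* and *Serpine2* for *Alox5* (0.966 and 0.953), *Gpsm3* and *Pdcd2l* for *Alox5ap* (0.931 and 0.922), and *Tmem86a* and *Man2b1* for *Ltc4s* (0.979 and 0.978). The points share the 5 groups and about 3913 genes were compared, so high values are common.

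Of 68 other eicosanoid genes listed, 58 had UMIs and 36 were tested, some of which passed the filter on low counts only through the groups where they were high, so the counts are descriptions. Of these, 14 were higher and 10 lower *in vitro* against adult, 12 and 10 after 1 day in slices, 12 and 11 after 1 week and 11 and 8 after 3 weeks, beside 22.4% higher and 28.5% lower of all genes tested *in vitro*, 24.9% and 25.3% after 1 day, 15% and 13.6% after 1 week, and 17.9% and 17.5% after 3 weeks. Of the 7 genes tested that release arachidonate, 0 were called higher and 5, 4 and 5 lower *in vitro*, at 1 day and at 1 week, and 1 was higher and 3 lower at 3 weeks. *Mgll*, monoacylglycerol lipase, changed by −7.95 *in vitro*, −3.41 at 1 day and −2.50 at 3 weeks, and *Pla2g15*, a lysosomal phospholipase, by −1.68, −2.64 and −1.92 (*Pla2g15* turned sign per cell *in vitro*, at 0.47). *Daglb*, a diacylglycerol lipase, was −2.06 *in vitro* (0.13 per cell). *Cyp4f18*, a leukotriene B hydroxylase, rose by 6.28, 5.99 and 4.09, *Dpep2*, a dipeptidase that trims leukotriene D, by 6.22, 4.70 and 3.48, and *Ptgr1*, a prostaglandin reductase, by 2.61, 1.55 and 1.51. *Ggt5*, which trims leukotriene C, changed by −2.26, −2.79 and −2.21, *Cyp4f13* by −1.83 *in vitro* (0.39 per cell), and the epoxide hydrolase *Ephx1* by 1.94 at 3 weeks. The 2 libraries of 3 weeks differed widely in *Cyp4f18* (19.8 ± 14.7 CPM, SD, n = 2).

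Without the neutrophil-marker-rich cells, 35 of these genes were tested. Of them, 13 were called higher and 10 lower at 1 day and 11 and 11 at 1 week against adult. Over all genes tested without these cells, 3000 of 12024 were higher and 3051 lower at 1 day. At 1 week 1647 of 12023 were higher and 1666 lower. *Cyp4f18* then stood at 5.73 and 5.97, *Dpep2* at 4.67 and 4.53, and *Mgll* at −3.68 and −4.14 at 1 day and 1 week. *Ggt1* was no longer tested, the call of *Mgst2* at 1 week was lost (1.70, adjusted p = 0.391), and *Pla2g4a* (0.60, 0.00848) and *Mgst3* (0.61, 0.00312) were called higher at 1 day, these 4 named after their values were seen.

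Of the receptors, 8 of 17 listed passed the filter on low counts. The prostaglandin E receptor *Ptger3* had 12.3 and 13 CPM in adult and at most 0.262 CPM in any culture library. The other 2 tested for the same ligand moved the other way. *Ptger4* had at most 0.732 CPM in adult and 7.82 to 33.2 in the cultures, and *Ptger2* at most 0.073 CPM in adult and 1.02 to 7.90 in the cultures. Each of the 3 passed the filter on low counts only through the side where it was high, so these levels are a description. *Cysltr1*, a receptor for leukotrienes C and D, had 95.9 and 128 CPM in adult and 18.8 to 42.0 in the cultures, and was called lower in all 4 (−1.60, −2.17, −2.10 and −2.04, in the order *in vitro*, 1 day, 1 week, 3 weeks, with 0.62 per cell *in vitro*). *Ltb4r1*, the leukotriene B receptor of granulocytes, measured 39.8 and 74.1 CPM at 1 day and 95.8 and 2.56 at 1 week against at most 0.646 elsewhere, and *Fpr2*, which binds lipoxin, 30.1 and 31.4 at 1 day and 30.6 and 5.11 at 1 week against at most 2.41, the same libraries that held the neutrophil markers. Without the neutrophil-marker-rich cells *Ltb4r1* measured 24.3 and 27.0 CPM at 1 day and 10.8 and 2.60 at 1 week, and *Fpr2* 11.9 and 11.1 at 1 day and 3.24 and 2.60 at 1 week. These genes passed the filter only through libraries where they were high, and their levels are a description too. *Ptgir*, the prostacyclin receptor, had at most 2.78 CPM in any library. The chemerin and resolvin receptor *Cmklr1* had 66.7 and 65.5 CPM in adult and 16.5 to 51.1 in the cultures, and per cell its sign turned *in vitro* (0.69), at 1 week (0.79) and at 3 weeks (0.38).

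**Figure D5:**
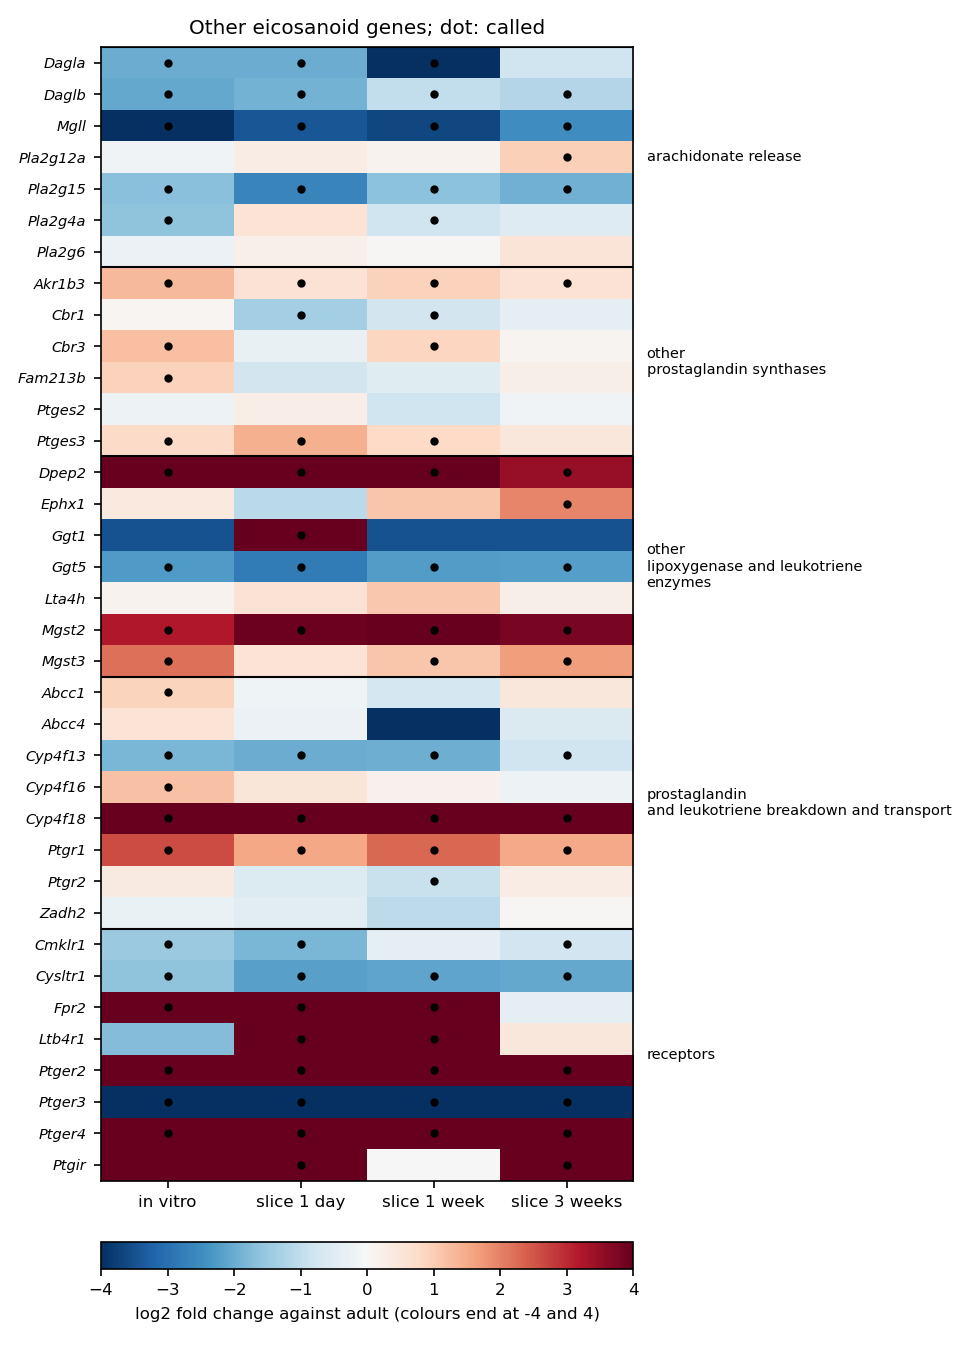
Log2 fold change against adult of the 36 other eicosanoid genes tested (rows, grouped by role) in the 4 cultures (columns), with a dot where the difference was called and colours ending at −4 and 4. Values of genes with no UMI in one group, such as *Ptger3* *in vitro*, depend on the prior count of the fit.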

How the data were processed

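Libraries were made with 10x 3′ v2 chemistry from sorted microglia. The authors deposited 1 table of UMI counts per library, made with Cell Ranger 1.3.0 on mm10 per the submitters' processing notes, and these counts were used as deposited. The 9 members and all gene lists were chosen with earlier results of these data known.

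Cells with over 5% mitochondrial UMIs, fewer than 400 genes or over 30000 UMIs were removed, and no doublet caller was run. Counts were summed per library and tested in edgeR 4.0.16 (R 4.3.3; TMM, filterByExpr with a minimum count of 10, quasi-likelihood F-test, 1 model of the 5 groups with 5 residual degrees of freedom), with Benjamini-Hochberg adjustment over 12157 genes and two-sided p-values. Adjusted p-values of an alternative setting come from the same kind of test in that setting's own fit, adjusted over the genes tested there. All others are from this fit. The SE was the absolute log2 fold change over the square root of F. A fold against a group at 0 was taken against 3 counts over that group and given as a lower bound. Shares of cells carry exact Clopper-Pearson 95% intervals, and intervals and floors cover counting error alone. For depth-matched shares each cell was thinned to 1500 UMIs, leaving 17909 cells, with 278 and 856 adult cells and at most 7 in any other library too shallow.

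All members were named. Of the other eicosanoid genes, up to 4 called higher and 4 lower with the largest change at an abundance limit of 3 (log2) were named in the comparisons of *in vitro*, 1 day and 3 weeks with adult, plus every receptor that passed the filter. Alternatives were other scalings (RLE, library size, UMIs per cell), DESeq2 1.42.0, no filter on low counts, all barcodes, cells with markers of other types left out, thinned cells, the study label, the replicate number, 2 groups only and each library left out. Leaving out cells with at least 2% of UMIs in neutrophil markers, or the 2 libraries with neutrophil markers in nearly all cells, was chosen after seeing the data. Scripts were tested on simulated data. Python 3.11.15, numpy 2.4.6, scipy 1.17.1 and pandas 2.3.3 were used, gene positions came from GENCODE on GRCm38, and strand use in counting is not given in the sources used here.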

Additional observations from a re-analysis of the deposited data

Results flagged for a closer look

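The cultures were also compared with one another, and members whose change from adult differed between 2 cultures by the test of that difference (edgeR quasi-likelihood, Benjamini-Hochberg) are listed as log2 fold changes.

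*In vitro* minus slice 3 weeks, *Ptgs1* differed by −1.51, *Ptges* by −1.82, *Alox5* by −3.02 and *Ltc4s* by −1.28, and *Hpgd* by 2.53 and *Alox5ap* by 0.91. Per cell, *Ptgs1* (−0.44) and *Ltc4s* (−0.21) were not called. Each of *Ptgs1*, *Ptges*, *Alox5*, *Ltc4s*, *Hpgd* and *Alox5ap* had both *in vitro* libraries on 1 side of both slice libraries. The border macrophage markers differed with them, at 4517 and 4332 CPM *in vitro* and 173 and 130 CPM at 3 weeks, and their part in the differences was not tested. *Ptges* was no longer called without *in vitro* replicate 1 or 2, slice 1 day replicate 2 or slice 3 weeks replicate 2, nor *Alox5ap* without *in vitro* replicate 2. Of the 15 settings other than leaving out 1 library, *Ptges* was called in 9.

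From slice 1 day to 1 week, *Ptgs1* differed by 1.20, *Tbxas1* by 0.83, *Hpgd* by 2.35, *Ltc4s* by 2.84 and *Ptges* by −2.84. From 1 week to 3 weeks, *Tbxas1* differed by 0.78 and *Hpgd* by −2.60. The filter kept *Ptges* only through the 1 day libraries and 1 of 1 week, so its difference from 1 day is a description. Without 1 library at a time, *Ptges* was called in 4 of 10. The 1 week libraries held 148 and 61 cells, the fewest of the series.

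From slice 1 day to 3 weeks, *Ptgs1* differed by 1.92, *Tbxas1* by 1.62 and *Ltc4s* by 3.06, and *Ptgs2* by −5.78 and *Ptges* by −4.18. The neutrophil markers differed too, at 7996 and 23045 CPM at 1 day and at most 6.27 CPM at 3 weeks. Without the cells rich in them, *Ptgs1* (1.97), *Tbxas1* (1.55) and *Ltc4s* (3.18) were still called, and *Ptgs2* and *Ptges* differed by −5.75 and −4.22. The filter kept *Ptgs2* only through its 1 day libraries and *Ptges* through those and 1 of 1 week, so their differences from 1 day are descriptions.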

How the results depend on the processing

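Of 72 results of a member in a comparison, 41 were called. Of these, 15 stayed called under every alternative that gave a value, and 26 under every one but UMIs per cell, although *Hpgds* *in vitro* then had the opposite sign. The differences of *Ptgs2* and *Ptges* from 1 day among them are descriptions, and their count here supports nothing. The limits are the 2 libraries per group, the 61 and 148 cells at 1 week, and the few *Ptgs2* and *Ptges* UMIs. Causes of the changes below were not tested.

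With UMIs per cell, signs turned *in vitro* for *Hpgds* (1.42), *Tbxas1* (1.98), *Hpgd* (1.17) and *Ltc4s* (0.26), at 1 day for *Hpgds* (0.16), *Tbxas1* (0.26), *Alox5* (1.46) and *Alox5ap* (1.10), at 1 week for *Hpgds* (0.19), *Tbxas1* (0.73), *Hpgd* (0.26) and *Ltc4s* (0.34), at 3 weeks for *Ptgs1* (0.22), *Hpgds* (0.24), *Alox5ap* (0.28) and *Ltc4s* (0.47), and between *in vitro* and 3 weeks for *Ptgs2* (0.91) and *Tbxas1* (0.54). Members called fell to 3 from 1 day to 1 week and to 1 from 1 week to 3 weeks. Of all 12157 genes, 163 were then higher and 604 lower from 1 day to 1 week, against 597 and 638 in the main fit. From 1 week to 3 weeks 85 were higher and 510 lower, against 270 and 424.

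Library size alone turned *Alox5ap* *in vitro* (−0.27) and at 1 week (−0.17), and *Hpgds* between *in vitro* and 3 weeks (−0.0078, also −0.011 with the study label as covariate and −0.016 with the second label only). The second label only also turned *Alox5ap* *in vitro* (−0.0073) and at 1 week (−0.010), *Alox5* from 1 week to 3 weeks (−0.046) and *Hpgd* from 1 day to 3 weeks (0.094). DESeq2 turned *Ptgs2* between *in vitro* and 3 weeks (0.11), and no filter turned *Alox5ap* at 1 week (−0.010). Each called 4 members from 1 week to 3 weeks. Of all 18226 genes there, DESeq2 called 272 higher and 650 lower, and no filter 927 and 795. The main fit called 270 and 424 of 12157. Thinned cells turned *Alox5* (0.49) and *Alox5ap* (0.26) at 1 day and *Alox5ap* from 1 day to 1 week (−0.037), where 2 members were called.

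Without cells rich in neutrophil markers, *Alox5* (−0.039) and *Alox5ap* (−0.40) turned at 1 week, *Ptges* from 1 week to 3 weeks (6.44) and *Alox5ap* from 1 day to 3 weeks (0.21). Without cells with 3 neutrophil markers, without those with 3 markers of another type, and without the 2 libraries, *Alox5ap* at 1 week was −0.20, −0.18 and −0.19, and *Ptges* from 1 week to 3 weeks 6.60, 6.59 and 6.62. The first 2 gave *Alox5ap* 0.24 and 0.74 from 1 day to 3 weeks. Each of the 3 settings leaves 1 library in each early slice group, which is assumed to vary like the others, so their calls are not counted here. With only the 2 groups compared, *Alox5ap* at 3 weeks against adult and *Tbxas1* from 1 week to 3 weeks were no longer called.

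Leaving out 1 library at a time, members called ranged from 2 to 5 at 1 week against adult, 2 to 5 from 1 day to 1 week and 1 to 3 from 1 week to 3 weeks. The calls over all genes tested moved as well. Without slice 1 week replicate 1 they were fewer than in the main fit in each of these comparisons. Without slice 3 weeks replicate 1 they were more from 1 week to 3 weeks. The ranges are therefore not particular to the members. Signs turned within the ranges of *Tbxas1* *in vitro* (−0.21 to 0.0058), *Alox5* at 1 day (−0.45 to 0.19), *Alox5ap* at 1 week (−0.22 to 0.23), *Ptgs2* between *in vitro* and 3 weeks (−2.78 to 2.83), *Ptgs2* (−6.05 to 3.10) and *Ptges* (−1.94 to 6.56) from 1 week to 3 weeks, and *Hpgd* from 1 day to 3 weeks (−0.70 to 0.096), 0 of them called. *Ptges* between *in vitro* and 3 weeks was called in 6 of 10. From 1 day to 1 week, where its difference is a description, it was called in 4 of 10.

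Same-numbered libraries did not deviate together (r from −0.13 to 0.12, over 0.1 in 2 of 10 pairs). A replicate block gained *Ptgs1* from 1 week to 3 weeks (adjusted p = 0.0484) and turned *Ptgs2* between *in vitro* and 3 weeks (0.025). It also lost *Ptges* from 1 day to 1 week, a difference that is a description.

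*Ptgs2* failed the filter on low counts, and so had no value, with thinned cells, without cells with 3 neutrophil markers or 3 of another type, without the 2 libraries and, where 1 day was not compared, with only the 2 groups. *Ptges* failed it with only the 2 groups in the comparisons of adult with *in vitro*, 1 week and 3 weeks and from 1 week to 3 weeks. *Ptgs2* and *Ptges* also had no value where both groups were left without a UMI.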
